A study of Mus musculus with 18 samples.

Results

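Pericytes were 173 of the 47251 cells kept from 10 single-cell libraries of mouse skin, a share of 0.366%. They were chosen by their own counts of unique molecular identifiers (UMIs, single captured transcripts): at least 5 UMIs of Rgs5, at least 1 UMI of Notch3, Kcnj8 and Cspg4 together, fewer than 3 UMIs of Myh11, no UMI of Ptprc or Pecam1, and less than 0.3% of UMIs from Krt5 and Krt14. A barcode was kept as a cell where it had 200 or more genes and 500 or more UMIs, with no more than 10% of them mitochondrial. Of the pericytes, 104 came from control skin and 69 from expanded skin. The genes used for the choice are given below as a description and were not tested.

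The series compares skin stretched by an implanted expander with unstretched skin. Mice of both arms were operated on: the back was cut near the tail, a tunnel was opened towards the neck and the cut was stitched. Expanded mice (EXP) kept an expander hydrogel under the skin, held by stitches, and control mice (CTRL) had the tunnel alone. Living cells, which exclude the dye DAPI, were sorted on day 1, 2 or 4 and sequenced from the 3′ end of their transcripts. Each arm had 5 libraries, 2 from day 1, 2 from day 2 and 1 from day 4, and each library pooled the mice of 1 arm in 1 sequencing round. A library is therefore the unit of every test, and its cells come from several animals. Strain, genotype, sex and age are not given in the sources used here. Values per library follow a fixed order: day 1 round 1, day 1 round 2, day 2 round 1, day 2 round 2, day 4 round 1.

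Pericytes are mural cells that sit within the basement membrane of capillaries and small venules, wrapped around the endothelial tube. Endothelial cells recruit them with PDGF-B, which acts on the receptor PDGFRB, and Notch3 signalling from the endothelium maintains their identity. In skin they help set capillary flow and permeability, deposit basement membrane with the endothelium, and can respond to injury with cytokines and matrix-remodelling proteins.

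The mRNA libraries held 17726739 to 75470722 gene UMIs over 2468 to 9115 barcodes, of which 1927 to 8312 were kept. Control libraries held 16, 36, 13, 13 and 26 pericytes, and expanded libraries 7, 17, 12, 13 and 20. The expanded library of day 1 round 1, with 7 pericytes, was below the limit of 10 and stayed out of every gene test, so those tests compare 5 control with 4 expanded libraries, and its values are listed beside the others. Among kept cells 263 barcode sequences occurred in more than 1 library, and pericytes of different libraries shared 0. Scrublet, which scores likely doublets, marked 5 pericytes, and they were kept in the main analysis. Antibody hashtags assigned 76 of the 173 pericytes to 21 mice, with 1 to 13 per mouse.

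The label was checked against markers that the choice did not use. Pdgfrb, the PDGF-B receptor, had a UMI in 89.0% of the pericytes, and Ndufa4l2 and Cox4i2, mitochondrial subunits typical of mural cells, in 82.7% and 75.7%. Abcc9, the sulfonylurea receptor that partners the potassium channel Kcnj8, was seen in 59.5%, Mcam in 56.6%, Higd1b in 47.4% and the matrix protein vitronectin (Vtn) in 43.4%. In the 10987 immune cells of the same libraries (at least 2 Ptprc UMIs), a class that should lack these genes, Pdgfrb was seen in 1.96%, Abcc9 in 0.218% and Vtn in 0.0273%, at a median depth of 7248 UMIs against 5328 in pericytes. Cdh5, the endothelial cadherin, was seen in 1.16% of pericytes. The contractile genes Acta2 and Tagln were seen in 64.2% and 48.0%. These shares were not counted in smooth muscle cells, so the check does not separate pericytes from smooth muscle cells low in Myh11. The proliferation genes Mki67 and Top2a had a UMI in 3 and 11 pericytes.

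Cells on the 2 sides of the Rgs5 threshold were compared once, as a description. The 13 pericytes with 5 or 6 Rgs5 UMIs had a median of 3777 UMIs, and 92.3% of them had a Pdgfrb UMI, 76.9% a Cox4i2 UMI and 69.2% an Ndufa4l2 UMI. The 17 cells that met every other condition with 3 or 4 Rgs5 UMIs had a median of 3171 UMIs, and the shares were 64.7%, 17.6% and 41.2%. Abcc9 was seen in 38.5% just inside and in 47.1% just outside. Over all pericytes the median was 24 Rgs5 UMIs.

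Transcripts of other cell types in the summed pericytes were uneven between libraries. The 7 fibroblast markers (Pdgfra, Col1a1, Col1a2, Dcn, Lum, Dpt, Pi16), all detected, summed to 777 to 32183 counts per 1000000 UMIs (CPM) in controls and to 455 to 67004 CPM in expanded libraries, against 19660 to 141632 CPM in fibroblasts and 92.3 to 5596 CPM in immune cells. There were 6 pericytes, in 5 libraries, that carried at least 1% fibroblast transcripts, and without those 6 cells the sums were 777 to 2419 CPM and 455 to 1229 CPM. Endothelial markers gave 15 UMIs in all and immune markers 83 UMIs in 5 of 6 genes, with Pecam1 and Ptprc at 0 because the rule requires it. Schwann and melanocyte markers gave 6 UMIs, with Sox10 at 0. Smooth muscle markers, which pericytes share in part, were all detected and summed to 490 to 2323 CPM in controls and 1041 to 2261 CPM in expanded libraries. In smooth muscle cells they summed to 8319 to 15844 CPM. Myh11 was capped in pericytes, while Myh11 and Acta2 were required in smooth muscle cells, so the choice of cells set part of this gap. Fibroblasts and immune cells were also chosen by some of the markers summed here. Keratinocyte markers summed to 28.5 to 165 CPM in controls and 24.6 to 918 CPM in expanded libraries. Immune markers summed to 17.5 to 188 CPM in controls (median 120) and to 5.89 to 49.2 CPM in expanded libraries (median 29.2), against 9331 to 35160 CPM in immune cells. They were lower in expanded skin in 5 of 5 pairs. The limit of 0 Ptprc UMIs is absolute and so stricter for deep cells, and expanded pericytes were deeper, as given below. The part of depth in this difference, and of immune transcripts in the gene differences below, was not tested.

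The genes of the rule themselves were as follows. Rgs5, a regulator of G-protein signalling, stood at 4865, 5735, 5201, 7883 and 5333 CPM in control libraries and 3066, 5052, 2661, 2719 and 3489.5 CPM in expanded libraries. Notch3, the mural Notch receptor, stood at 608, 658, 525, 847 and 354 CPM in control libraries and 555, 501, 477, 351 and 315 CPM in expanded libraries. Kcnj8, the pore of an ATP-sensitive potassium channel, stood at 266, 367, 280.2, 165 and 194 CPM in control libraries and 175, 77.1, 64.8, 185 and 514 CPM in expanded libraries. Arms overlapped for each of these genes, and the lowest control library for Rgs5 lay below the highest expanded one. Since a shallow cell reaches 5 Rgs5 UMIs only at a high CPM, these levels depend on depth and carry no comparison.

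Pericytes differed among themselves along the axis of Kcnj8 and the smooth muscle actin Acta2. To compare cells at 1 depth, the 158 pericytes with at least 2000 UMIs were thinned to 2000 UMIs, leaving 13 control cells and 2 expanded cells aside. Of the 44 thinned cells with a Kcnj8 UMI, found in 9 libraries, 72.7% also had a UMI of Abcc9, the partner subunit of the same channel, and 9.09% had a UMI of the contractile gene Tagln. Of the 114 thinned cells without a Kcnj8 UMI, the shares were 30.7% for Abcc9 and 50% for Tagln. Acta2 had a median of 0 UMIs in the first group and of 2 UMIs in the second, with 65.9% and 34.2% of cells at 0. This was so in each arm: Abcc9 was seen in 75% against 33.9% of control cells, and in 66.7% against 27.3% of expanded cells. Before thinning, 7 pericytes had at least 10 Kcnj8 UMIs, and they came from 2 libraries, both expanded. This limit is on raw counts, and expanded pericytes were deeper, as given below. At 1 depth, 32 control cells had a Kcnj8 UMI and 59 had none, while 12 expanded cells had one and 55 had none. The 19 pericytes with at least 20 Acta2 UMIs came from 8 libraries. Kcnj8 took part in the choice of cells, so these shares are a description.

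**Figure D1:**
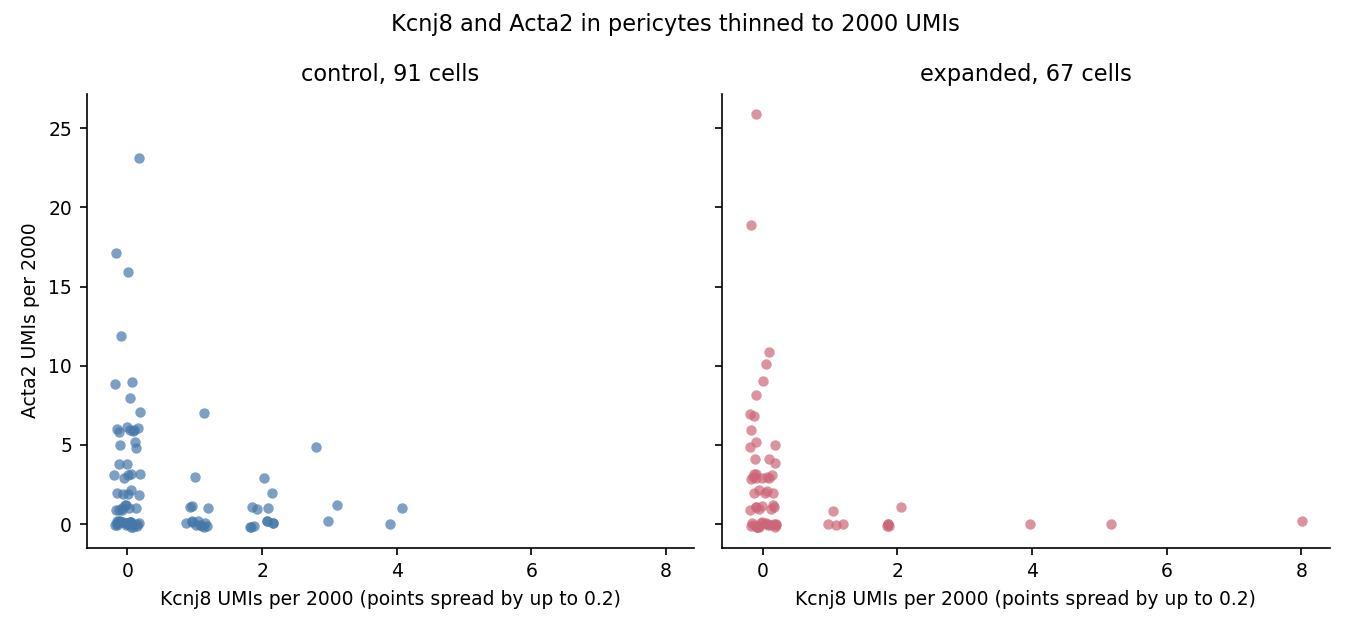
Acta2 UMIs (vertical axis) against Kcnj8 UMIs (horizontal axis) in each of the 158 pericytes thinned to 2000 UMIs, with 91 control cells on the left and 67 expanded cells on the right; points are moved by up to 0.2 on both axes so that equal values can be seen. Cells with high Acta2 lie at 0 Kcnj8 UMIs in both arms, and the highest Acta2 among cells with a Kcnj8 UMI was 7 in controls and 1 in expanded skin.

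The share of pericytes did not differ between the arms beyond the spread of libraries. Pericytes made up 0.275%, 0.433%, 0.595%, 0.222% and 0.346% of kept cells in control libraries and 0.237%, 0.289%, 0.354%, 0.675% and 0.584% in expanded libraries. The means were 0.374% ± 0.147 (SD, n = 5) and 0.428% ± 0.191 (SD, n = 5), with a two-sided exact permutation p = 0.619, and the expanded library was higher in 2 of 5 pairs of the same day and round. The direction of the difference was not stable: without the expanded library of day 2 round 2 it was -0.00825 percentage points (exact permutation p = 0.960), and per 100 endothelial cells there were 8.59 ± 4.04 control pericytes against 7.22 ± 4.11 expanded ones (SD, n = 5, exact permutation p = 0.595). With the rule applied to cells thinned to 2000 UMIs, the shares were 0.499% and 0.501% (exact permutation p = 0.992). The lowest count, 7 pericytes, had a Clopper-Pearson 95% interval of 0.0953% to 0.488%, which covers counting error only.

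Pericytes of expanded skin held more transcripts. Their median depth per library was 4854.5, 3746, 3426, 3552 and 4356.5 UMIs in controls and 5188, 6558, 15310, 12931 and 10687 UMIs in expanded libraries. No expanded library overlapped with a control one, and the excess was smallest on day 1 round 1. The means were 3987 ± 602 and 10135 ± 4248 UMIs (SD, n = 5), a ratio of 2.54, with a two-sided exact permutation p = 0.00794, which is the smallest this design can give; the comparison was chosen after the data had been seen. Paired by day and round, the excess held in 5 of 5 pairs with p = 0.0625 by the exact permutation test, again the smallest possible. Median genes per pericyte were 1608 ± 174 and 2926 ± 703 (SD, n = 5; exact permutation p = 0.00794), and mitochondrial UMIs made up 3.61% ± 0.425 and 3.73% ± 0.840 (SD, n = 5; exact permutation p = 0.778). Depth also rose in endothelial cells, from 6026 to 10785 UMIs, and in smooth muscle cells, from 6059 to 12180 UMIs (exact permutation p = 0.00794 for each). In fibroblasts the medians were 11472 and 13532 UMIs (exact permutation p = 0.230), and over all kept cells 8071 and 9590 UMIs (exact permutation p = 0.262). Both were higher in 5 of 5 pairs, with p = 0.0625 by the exact permutation test within pairs, while the median of immune cells was higher in 2 of 5. Divided by the median of the kept cells of the same library, pericyte depth was 0.419 to 0.582 in controls and 0.404 to 1.73 in expanded libraries, with means of 0.504 and 1.11 (exact permutation p = 0.0476). This ratio was higher in 4 of 5 pairs, and on day 1 round 1 it was 0.419 in the control and 0.404 in the expanded library. Depth therefore moved with the arm in pericytes, and its part in the gene differences below was not tested. Values from cells thinned to 2000 UMIs stand beside the main ones where a gene could still be tested. Those cells had been chosen by the rule at their full depth. Thinning therefore did not remove the link between depth and the absolute limits on Rgs5, Myh11, Ptprc and Pecam1.

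**Figure D2:**
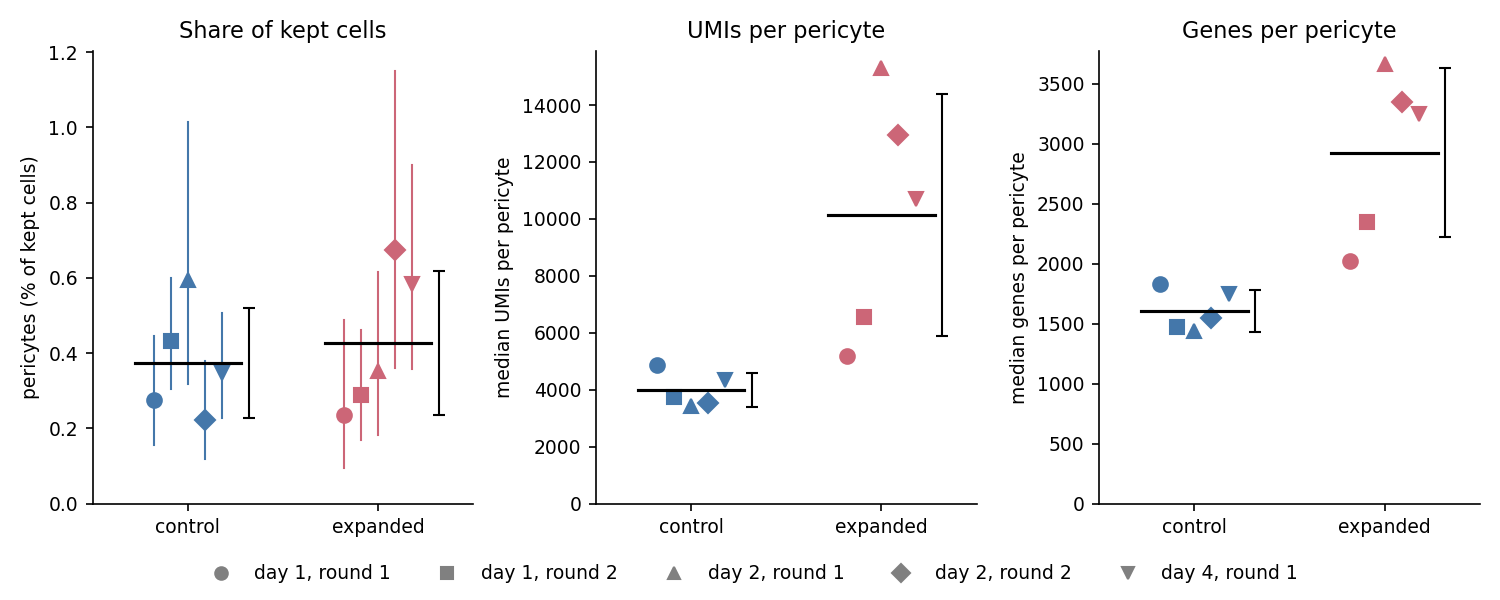
Pericyte share of kept cells (percent, with 95% Clopper-Pearson intervals as thin lines), median UMIs per pericyte and median genes per pericyte in each library, control on the left and expanded on the right of each panel, with symbols for day and round, a bar at the mean and a bracket of ± 1 SD (n = 5). The shares overlap, while the expanded libraries, at 5188 to 15310 UMIs, all lie above the controls, at 3426 to 4854.5 UMIs.

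For gene tests, pericyte UMIs were summed per library and compared between the arms by the quasi-likelihood test of edgeR, in a model with day and arm, and p-values were adjusted (Benjamini-Hochberg) over all 2431 genes tested. At an adjusted p of 0.05, 112 genes rose (4.61%) and 138 fell (5.68%) in expanded skin, and the median log2 fold change over all genes tested was -0.02. These shares are the base beside which the counts of each gene list below stand, and no list was tested as a whole. Groups that do not overlap were seen in 15.4% of the genes tested. With total-count scaling in place of TMM the split was 177 higher and 115 lower, and the median was 0.09. After thinning, 494 genes could be tested in 4 control and 4 expanded libraries, of which 48 rose and 56 fell. All 102 of the main calls that could be tested kept their sign there, and 67 remained called. Leaving out single libraries left 118 to 236 calls. Below, a level is a CPM in the summed pericytes of a library and a difference is a log2 fold change of expanded over control; a lower sum does not tell fewer cells with a transcript from less of it per cell.

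Timp3 and Timp1, inhibitors of the metalloproteinases that cut matrix, went opposite ways. Timp3, the tissue inhibitor of metalloproteinases that binds to matrix, stood at 2404, 2812, 2294, 1412 and 1682 CPM in control libraries and 876, 694, 129.5, 289 and 63.8 CPM in expanded libraries. Every expanded library lay below every control library, with means of 2121 ± 566 CPM (SD, n = 5) and 294 ± 283 CPM (SD, n = 4) and a difference of -3.12 ± 0.43 log2 units (SE), adjusted p = 0.00158. Timp1, the soluble and inducible member of the same inhibitor family, stood at 114, 76.2, 17.5, 47.1 and 107 CPM in control libraries and 496, 247, 1266, 726 and 479 CPM in expanded libraries. The arms did not overlap, and the difference was 2.65 ± 0.51 log2 units (SE), adjusted p = 0.00714. Among pericytes with at least 10 Rgs5 UMIs, which left 3 control libraries, it was 1.39 (adjusted p = 0.0964). After thinning, Timp3 remained lower at -3.27 (adjusted p = 0.000611), while Timp1 was too low to be tested.

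Itga9, the alpha chain of the integrin that binds tenascin-C and osteopontin, was nearly absent from control pericytes. It stood at 0, 13.9, 0, 0 and 6.67 CPM in control libraries and 58.4, 147, 124, 92.3 and 99.7 CPM in expanded libraries, from 3 UMIs in 5 control libraries and 80 UMIs in 4 expanded ones. The difference was 4.14 ± 0.63 log2 units (SE), adjusted p = 0.00128, without overlap. Pi15, a secreted protein with a cysteine-rich domain known as a peptidase inhibitor, stood at 152, 97.0, 87.6, 471 and 140.2 CPM in control libraries and 526, 1581, 659, 861 and 746 CPM in expanded libraries. It rose by 2.40 ± 0.44 log2 units (SE), adjusted p = 0.0066, and the control library of day 2 round 2 was the highest control by a wide margin. Sdc1, a heparan sulfate proteoglycan of the cell surface, rose by 2.34 ± 0.52 log2 units (SE), adjusted p = 0.0159, from 104 ± 62.7 CPM (SD, n = 5) to 573 ± 262 CPM (SD, n = 4); its call was lost without the control library of day 2 round 1, the control library of day 4 or the expanded library of day 4 (adjusted p up to 0.0931). Serpina3n, an extracellular serine protease inhibitor, had a difference of 1.90 log2 units (adjusted p = 0.0439), its arms overlapped, and its call was lost in 6 of 9 fits that left out 1 library (adjusted p up to 0.274). Itih5, a hyaluronan-binding inhibitor chain, fell by 3.10 on the log2 scale (adjusted p = 0.00123), from 153 ± 93.7 CPM (SD, n = 5) to 20.4 ± 8.07 CPM (SD, n = 4).

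Several genes by which pericytes are recognised fell, while the receptor Pdgfrb and the actin genes did not pass the test. Of 35 genes on a list of pericyte identity, 23 could be tested beside the genes of the rule. Of these, 0 rose, 6 fell and 17 were not called, with a list median of -0.58. With at least 10 Rgs5 UMIs per pericyte, 3 genes of the list fell, and Ebf1, Rgs4 and Gucy1a1 were not called. Cells were chosen by an absolute Rgs5 count, and the part of depth in these falls was not tested. The list and the others below were drawn up with earlier results of these data known. Vtn, which links cells to matrix, stood at 266, 298, 298, 212 and 167 CPM in control libraries and 146, 77.1, 106, 30.8 and 23.9 CPM in expanded libraries. It fell by 2.16 ± 0.37 (SE) on the log2 scale, adjusted p = 0.0019, with no overlap. Colec11, a secreted collectin, stood at 171, 139, 140.1, 0 and 127 CPM in control libraries and 0, 0, 5.89, 0 and 0 CPM in expanded libraries. Of its 66 UMIs in the libraries tested, 65 were in controls and 1 in expanded skin, the control library of day 2 round 2 had 0, and the adjusted p was 0.00128. Ebf1, a transcription factor of mural and stromal cells, stood at 979, 1184, 893, 1553 and 1242 CPM in control libraries and 584, 563, 429.8, 677 and 455 CPM in expanded libraries. It fell by 1.24 ± 0.25 (SE) on the log2 scale (adjusted p = 0.00535), in 4 of 4 pairs and without overlap, and by 1.30 after thinning (adjusted p = 0.0251). Steap4, a metalloreductase, had a difference of -3.26 log2 units (adjusted p = 0.00587), with 0 CPM in both libraries of day 2 round 1, and its call was lost without the expanded library of day 4 (adjusted p = 0.0659).

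Pdgfrb itself stood at 618, 575, 490.3, 612 and 434 CPM in control libraries and 672, 679, 371, 621 and 479 CPM in expanded libraries. The arms overlapped, and the difference was -0.06 ± 0.26 log2 units (SE), adjusted p = 0.912. Abcc9 had a difference of -0.58 log2 units (adjusted p = 0.376), Higd1b of -1.01 log2 units (adjusted p = 0.057), Cox4i2 of -0.57 log2 units (adjusted p = 0.214) and Mcam, a cell adhesion molecule of mural cells, of 0.44 log2 units (adjusted p = 0.389). A p above the threshold does not show that these genes were equal between the arms.

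Genes of the contractile apparatus gave no call. Of 37 listed genes, 23 could be tested, 0 rose and 0 fell, and the median was -0.04 with TMM and 0.07 with total-count scaling. Acta2 stood at 893, 1004, 298, 1718 and 1842 CPM in control libraries and 1124, 787, 2102, 1759 and 877 CPM in expanded libraries. The libraries of each arm spread over a wide range, and the difference was 0.03 ± 0.50 log2 units (SE), adjusted p = 0.983. Tagln, an actin-binding protein of smooth muscle, had a difference of -0.14 ± 0.66 log2 units (SE), and Myl9, the regulatory myosin light chain, of -1.36 ± 0.44 log2 units (SE), with adjusted p of 0.924 and 0.0621. Without the 6 pericytes that carried fibroblast transcripts, Myl9 passed the test (adjusted p = 0.0349). The SE of these genes, 0.50 for Acta2 and 0.66 for Tagln, sets how small a difference could be seen. Pericytes were chosen below an absolute Myh11 count, and the part of depth in these levels was not tested.

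Among receptors, channels and signalling proteins of vascular tone, 3 of the 17 tested genes fell and 0 rose, with a median of -0.64. Rgs4 and Gucy1a1 also stand on the identity list, and neither was called with at least 10 Rgs5 UMIs per pericyte. Rgs16, which switches off Gi and Gq signals, stood at 1178, 1157, 1086, 1012 and 894 CPM in control libraries and 73.0, 131, 182, 239.9 and 435 CPM in expanded libraries. No expanded library reached a control library, and the difference was -2.29 ± 0.32 log2 units (SE), adjusted p = 0.000751; after thinning it was -2.65 (adjusted p = 0.00308). Rgs4, a relative with the same kind of action, stood at 437, 575, 490.3, 941 and 527 CPM in control libraries and 263, 339, 177, 203 and 219 CPM in expanded libraries. It fell by 1.40 ± 0.30 (SE) on the log2 scale, adjusted p = 0.00761, without overlap, and was at -0.82 with adjusted p = 0.127 after thinning. Gucy1a1, a subunit of the soluble guanylate cyclase that nitric oxide activates, stood at 323, 526, 333, 635 and 721 CPM in control libraries and 87.6, 208, 124, 129 and 243 CPM in expanded libraries. It fell by 1.62 ± 0.30 (SE) on the log2 scale, adjusted p = 0.00321, again without overlap, and by 1.23 after thinning (adjusted p = 0.0393). The endothelin receptor Ednra had a difference of 0.26 log2 units (adjusted p = 0.672), with the expanded library of day 2 round 2 at 689 CPM above all others.

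**Figure D3:**
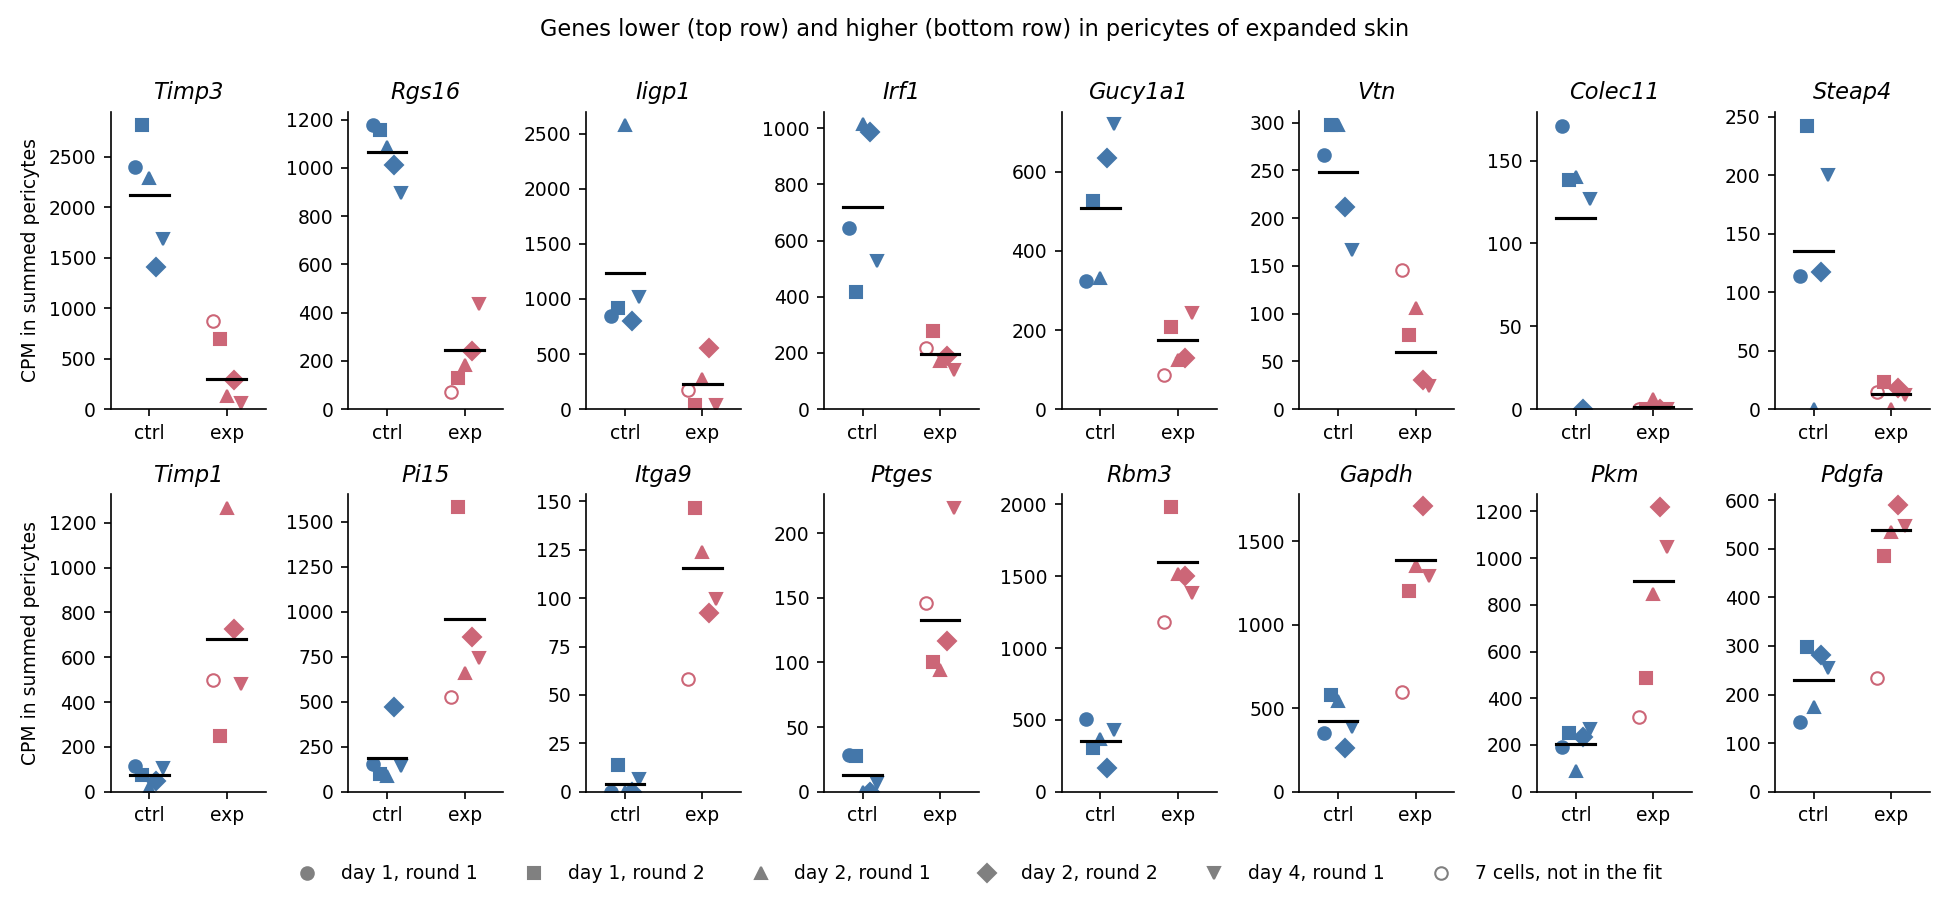
Level of 16 genes in the summed pericytes of each library (CPM, linear axes from 0), control on the left and expanded on the right of each panel, with symbols for day and round and a bar at the mean of the libraries tested (n = 5 and n = 4); the open circle is the expanded library with 7 pericytes, which was not in the fit. The top row holds genes that fell, among them Timp3 and Rgs16 with no expanded library above the lowest control, and the bottom row genes that rose, among them Itga9 and Rbm3.

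Several interferon-response genes fell in expanded pericytes. Of 55 listed genes of the interferon response and antigen presentation, 17 could be tested: 6 fell (Isg15, Ifi203, Iigp1, Ifi47, B2m and H2-K1), 1 rose (Ifitm2), and the median was -0.46. In the fit that blocks on the pair, 2 fell and 0 rose. After thinning, 10 could be tested, of which 6 fell and 0 rose, with a median of -1.16. The immune markers given above, with medians of 120 CPM in control and 29.2 CPM in expanded pericytes, moved the same way. Their part in these falls, and that of depth, was not tested. Type I interferons act on such genes through the ISRE motif, and interferon-gamma acts on Irf1 through the GAS motif. The 250 bases before the start site of 4 genes of this group are shown to let the motifs be read, with ISRE (GAAANNGAAA) or GAS (TTCNNNGAA) matches on either strand in capitals, 5′ to 3′ on the strand of the gene, from RefSeq, build GRCm38.p6. Isg15 lies at chr4:156200819-156201068 on the minus strand with 3 overlapping ISRE matches, Cxcl10 at chr5:92348890-92349139 on the minus strand, B2m at chr2:122147437-122147686 on the plus strand and Irf1 at chr11:53769764-53770013 on the plus strand.
Isg15: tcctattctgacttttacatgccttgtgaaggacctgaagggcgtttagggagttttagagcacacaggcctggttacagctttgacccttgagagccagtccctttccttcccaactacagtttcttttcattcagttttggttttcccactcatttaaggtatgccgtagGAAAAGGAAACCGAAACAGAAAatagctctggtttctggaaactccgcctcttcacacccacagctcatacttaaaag
Cxcl10: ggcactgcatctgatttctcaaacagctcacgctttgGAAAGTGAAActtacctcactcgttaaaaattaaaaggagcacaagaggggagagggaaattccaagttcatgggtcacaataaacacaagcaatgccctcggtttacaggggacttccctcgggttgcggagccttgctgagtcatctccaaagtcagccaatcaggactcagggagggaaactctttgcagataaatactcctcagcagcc
B2m: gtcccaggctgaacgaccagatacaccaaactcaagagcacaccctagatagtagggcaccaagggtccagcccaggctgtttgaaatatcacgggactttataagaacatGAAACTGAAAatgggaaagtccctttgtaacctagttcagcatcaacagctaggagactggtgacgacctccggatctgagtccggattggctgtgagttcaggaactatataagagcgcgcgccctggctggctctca
Irf1: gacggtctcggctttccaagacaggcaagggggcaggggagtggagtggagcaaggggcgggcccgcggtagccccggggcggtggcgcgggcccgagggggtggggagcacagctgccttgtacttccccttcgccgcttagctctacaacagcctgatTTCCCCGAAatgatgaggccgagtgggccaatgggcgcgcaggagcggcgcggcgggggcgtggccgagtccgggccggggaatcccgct

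Over the 6 listed genes that fell, with Irf1 and Cxcl10 from the lists below, 7 of 8 genes had a window that was searched. The search left out the windows of 1 chromosome, and Iigp1 was not searched. Of the genes searched, 4 held an ISRE match (Isg15, Ifi203, B2m, Cxcl10) and 1 a GAS match (Irf1). Among all 32851 single windows of the same length, 2.98% held an ISRE and 7.02% a GAS match. A gene was counted with a match in any of its windows, and Ifi203, H2-K1 and Irf1 had 2. The genes were picked as interferon-response genes, and members not called were not searched, so these shares carry no comparison. A match is a description of these letters and was not tested for function.

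Iigp1, an interferon-inducible GTPase, stood at 846, 914, 2574, 800.1 and 1021 CPM in control libraries and 175, 38.6, 277, 554 and 39.9 CPM in expanded libraries. Controls were all above the expanded libraries, led by the control library of day 2 round 1. The difference was -3.23 ± 0.61 log2 units (SE), adjusted p = 0.0148; with the pair as a block the adjusted p was 0.0596, and its call was lost without the expanded library of day 1 round 2 or without either library of day 2 round 1 (adjusted p up to 0.0945). Irf1, a transcription factor that interferon-gamma induces, stood at 646, 416, 1016, 988 and 527 CPM in control libraries and 219, 278, 171, 191 and 139.6 CPM in expanded libraries. It fell by 1.94 ± 0.31 (SE) on the log2 scale, adjusted p = 0.0014, with no overlap, and by 2.02 after thinning (adjusted p = 0.00617). Isg15, a ubiquitin-like modifier, stood at 133, 658, 525, 518 and 434 CPM in control libraries and 175, 216, 212, 252 and 83.7 CPM in expanded libraries. Its arms overlapped through control day 1 round 1, the difference was -1.44 ± 0.39 log2 units (SE), adjusted p = 0.0304, and its call was lost in 6 of 9 fits that left out 1 library (adjusted p up to 0.130). B2m, the light chain of class I MHC, stood at 1758, 1676, 1821, 847 and 1515 CPM in control libraries and 1212, 902, 754, 1193 and 459 CPM in expanded libraries. It was lower in 3 of 4 pairs, with -1.01 ± 0.29 log2 units (SE) and adjusted p = 0.0338, and its call was lost in 7 of 9 fits that left out 1 library (adjusted p up to 0.170). The class I heavy chain H2-K1 had a difference of -0.97 log2 units (adjusted p = 0.0326), the nucleic acid sensor Ifi203 of -2.07 log2 units (adjusted p = 0.00492) and the GTPase Ifi47 of -2.47 log2 units (adjusted p = 0.0326). Calls of H2-K1 and Ifi47 were lost in 5 and 7 of 9 such fits, and that of Ifitm2, at 0.79 log2 units (adjusted p = 0.0399), in 7. With the pair as a block the adjusted p was 0.0725 for B2m, 0.0536 for H2-K1, 0.107 for Ifi47 and 0.0781 for Ifitm2, and after thinning it was 0.105 for Ifitm2.

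Chemokines were abundant but uneven. Of 38 listed cytokines and chemokines, 11 could be tested: Cxcl10 fell, Mif rose and 9 were not called, with a median of -0.84. Cxcl10, which attracts T cells and is induced by interferon-gamma, stood at 190.0, 173, 385, 118 and 654 CPM in control libraries and 350.4, 38.6, 76.5, 0 and 19.9 CPM in expanded libraries. The expanded library of day 1 round 1, outside the fit, reached the range of the controls. The difference was -3.35 ± 0.74 log2 units (SE), adjusted p = 0.0236; with all 10 libraries it was -2.04 (adjusted p = 0.319), and its call was lost in 4 of 9 fits that left out 1 library (adjusted p up to 0.0985). Mif, a cytokine that most cells make, rose by 1.33 log2 units (adjusted p = 0.0304) and lost its call in 6 of 9 such fits (adjusted p up to 0.107) and with the pair as a block (adjusted p = 0.0658). Cxcl1, a neutrophil chemokine, stood at 6404, 7966, 10402, 1294 and 8130.0 CPM in control libraries and 175, 4419, 4398, 2756 and 4734 CPM in expanded libraries. Its difference was -0.84 ± 0.58 log2 units (SE), adjusted p = 0.408. Il6 stood at 3012, 2854, 3695, 1177 and 2329.5 CPM in control libraries and 584, 1442, 1531, 2307 and 913 CPM in expanded libraries. Its difference was -0.90 ± 0.32 log2 units (SE), adjusted p = 0.0851. Ccl2, which attracts monocytes, stood at 1625, 2826, 1436, 0 and 1088 CPM in control libraries and 29.2, 764, 259, 221 and 59.8 CPM in expanded libraries. Its difference was -2.20 ± 1.03 log2 units (SE), adjusted p = 0.245. For Cxcl1, Il6 and Ccl2 the control library of day 2 round 2 was the lowest control, at 0 CPM for Ccl2. This library, with 9 cells of at least 2000 UMIs, was not in the thinned fit, and there Cxcl1 (-1.16, adjusted p = 0.00410), Il6 (-1.20, adjusted p = 0.00258) and Ccl2 (-2.30, adjusted p = 0.00253) were called lower; of the 7 chemokine and cytokine genes tested after thinning 5 fell and 1 rose. Immune cells, which make some of these chemokines themselves, held 1902 and 944 CPM of Ccl2 and 1167 and 789 CPM of Cxcl1 in control and expanded skin, and the part of free RNA, or of the immune markers that were lower in expanded pericytes, was not tested.

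Other inflammatory genes went both ways. Of 51 listed genes of the inflammatory response and NF-kappaB, 25 could be tested, 4 rose and 5 fell, and the median was -0.29. Ptges, the inducible synthase of prostaglandin E2, stood at 28.5, 27.7, 0, 0 and 6.67 CPM in control libraries and 146, 100.3, 94.2, 117 and 219 CPM in expanded libraries. It rose by 3.07 ± 0.54 log2 units (SE), adjusted p = 0.00211, without overlap, and its call was lost without the expanded library of day 4 (adjusted p = 0.0552). Sod2, mitochondrial superoxide dismutase, rose from 344 ± 71.3 CPM (SD, n = 5) to 1029 ± 532 CPM (SD, n = 4), 1.33 log2 units (adjusted p = 0.0174), and Cd14, the co-receptor for endotoxin, from 84.8 ± 56.0 CPM (SD, n = 5) to 210.1 ± 52.3 CPM (SD, n = 4), 1.21 log2 units (adjusted p = 0.0427). Calls of Sod2 and Cd14 were lost in 4 and 8 of 9 fits that left out 1 library, and Cd14, a gene of myeloid cells, stood at 1201 and 1807 CPM in immune cells. The other calls of the list were Serpina3n upwards, and Steap4 and Irf1 downwards. Icam1, an adhesion molecule for leukocytes, fell by 1.36 on the log2 scale (adjusted p = 0.0229), the oncostatin M receptor Osmr by 1.18 (adjusted p = 0.0256) and the transcription factor Cebpb by 0.77 (adjusted p = 0.0422). These 3 calls were lost in 5, 6 and 8 of 9 such fits, with adjusted p up to 0.129, 0.134 and 0.145. With the pair as a block the adjusted p was 0.0902 for Cd14 and 0.0718 for Cebpb, after thinning it was 0.0612 for Sod2, and with total-count scaling it was 0.0691 for Cebpb. After thinning, 14 genes of the list could be tested, 0 rose and 6 fell.

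Several genes of glycolysis rose. Of 37 listed genes of hypoxia and glycolysis, 19 could be tested: 5 rose, 0 fell and the median was 0.60. Those that rose were the glucose transporter Slc2a1 and the glycolytic enzymes Gpi1, Gapdh, Pgk1 and Pkm. The hypoxia-responsive genes Vegfa, Ndrg1 and Egln1 were not called, with differences of 0.51, -0.12 and -0.12. The 250 bases before the start site are shown for 2 of the genes that rose, with ACGTG, the core that hypoxia-inducible factors bind, in capitals on either strand, from RefSeq, build GRCm38.p6. Pgk1 lies at chrX:106186850-106187099 and Slc2a1 at chr4:119108495-119108744, both on the plus strand.
Pgk1: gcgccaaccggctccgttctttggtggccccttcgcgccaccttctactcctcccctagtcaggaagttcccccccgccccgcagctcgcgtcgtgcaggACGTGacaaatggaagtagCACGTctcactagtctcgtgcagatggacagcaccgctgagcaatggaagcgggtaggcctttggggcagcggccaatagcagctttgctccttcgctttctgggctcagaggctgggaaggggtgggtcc
Slc2a1: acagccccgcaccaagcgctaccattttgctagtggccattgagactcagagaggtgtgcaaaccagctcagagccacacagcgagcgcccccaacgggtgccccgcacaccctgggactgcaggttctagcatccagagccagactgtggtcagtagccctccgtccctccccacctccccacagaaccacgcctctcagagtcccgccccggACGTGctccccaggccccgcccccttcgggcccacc

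Of the 5 genes that rose, 3 held such a match in any of their windows (Slc2a1, Pgk1 and Pkm, which had 2 windows). Of single windows over all genes, 16.6% held one. The genes come from a list of hypoxia and glycolysis, and members not called were not searched. These shares therefore carry no comparison, and a match was not tested for function. Pkm, pyruvate kinase, stood at 190.0, 249, 87.6, 235 and 267 CPM in control libraries and 321, 486, 848, 1218 and 1049 CPM in expanded libraries. It rose by 1.91 ± 0.33 log2 units (SE), adjusted p = 0.0019, without overlap, and by 1.56 after thinning (adjusted p = 0.0192). Gapdh stood at 352, 582, 543, 259 and 387 CPM in control libraries and 599, 1203, 1354, 1710.2 and 1292 CPM in expanded libraries. The arms did not overlap; it rose by 1.59 ± 0.27 log2 units (SE), adjusted p = 0.00185, and by 1.22 after thinning (adjusted p = 0.0209). Pgk1, phosphoglycerate kinase, rose by 1.77 log2 units (adjusted p = 0.00649), from 60.9 ± 22.1 CPM (SD, n = 5) to 253 ± 94.3 CPM (SD, n = 4). Slc2a1 rested on 13 control and 88 expanded UMIs, rose by 2.08 log2 units (adjusted p = 0.0105), and lost its call without the expanded library of day 2 round 2 or either library of day 4 (adjusted p up to 0.0648). Gpi1 rose by 1.20 log2 units (adjusted p = 0.0253), with a block adjusted p of 0.0556, and its call was lost in 6 of 9 fits that left out 1 library. Lactate dehydrogenase Ldha had a difference of 0.23 log2 units (adjusted p = 0.648).

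Growth factor pathways of the vessel wall gave few calls. Of 13 tested genes of the PDGF, angiopoietin and VEGF pathways, 1 rose and 2 fell, where 4.61% of all genes tested rose and 5.68% fell. The list median of -0.06 became 0.05 with total-count scaling. Pdgfa, a ligand of the PDGF receptors, stood at 143, 298, 175, 282 and 254 CPM in control libraries and 234, 486, 536, 591 and 546 CPM in expanded libraries. It rose by 1.11 ± 0.28 log2 units (SE), adjusted p = 0.0194; the expanded library with 7 pericytes lay within the controls, and the call was lost without the control library of day 2 round 1 or either library of day 4 (adjusted p up to 0.0648), and after thinning (adjusted p = 0.0889). Nrp1, a co-receptor of VEGF and semaphorins, stood at 162, 229, 193, 141 and 220.3 CPM in control libraries and 73.0, 84.8, 88.3, 49.2 and 47.9 CPM in expanded libraries. It fell by 1.60 ± 0.34 (SE) on the log2 scale, adjusted p = 0.00722, without overlap, and lost its call without either library of day 4 (adjusted p up to 0.0648). Angptl4, a secreted inhibitor of lipoprotein lipase, had a difference of -2.30 log2 units (adjusted p = 0.00949), and without the expanded library of day 4 its adjusted p was 0.0602. The angiopoietins Angpt1, which stabilises vessels, and Angpt2, which opposes it, had differences of -0.02 log2 units (adjusted p = 0.984) and 0.40 log2 units (adjusted p = 0.589). Pdgfb, the ligand that endothelial cells supply, gave 6 UMIs in control pericytes and 0 in expanded ones and was not tested.

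The next 3 lists had 1 call each, where 4.61% of all genes tested rose and 5.68% fell. In the TGF-beta and BMP list, 1 of 15 tested genes fell and 0 rose (median -0.15). That gene was Bmp2, a BMP ligand, which stood at 152, 208, 87.6, 165 and 127 CPM in control libraries and 14.6, 23.1, 17.7, 12.3 and 79.8 CPM in expanded libraries. It fell by 2.05 ± 0.45 (SE) on the log2 scale, adjusted p = 0.00867, with no overlap, and was called in 9 of 9 fits that left out 1 library. In the Notch list, 1 of 6 tested genes fell (median -0.43): Dtx3, a Deltex-family ubiquitin ligase, with -1.35 log2 units (adjusted p = 0.0159), whose call was lost in 3 of 9 fits that left out 1 library (adjusted p up to 0.0602). The Notch target Hes1 had a difference of -0.41 log2 units (adjusted p = 0.383) and the ligand Jag1 of -0.45 log2 units (adjusted p = 0.456). Of 11 tested targets and parts of the YAP and TEAD pathway, which responds to cell stretch, 0 rose and 1 fell (Gadd45b, -1.20 log2 units (adjusted p = 0.0226), lost in 5 of 9 fits that left out 1 library), with a median of -0.56; the target Ccn1 was at -0.28 and the coactivator Yap1 at 0.34, neither called.

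Of 12 tested basement membrane genes, 4 fell and 0 rose, with a median of -0.49. Tinagl1, a secreted matricellular protein, stood at 409, 291, 210.1, 329 and 287 CPM in control libraries and 102, 177, 53.0, 18.5 and 79.8 CPM in expanded libraries. It fell by 1.94 ± 0.38 (SE) on the log2 scale, adjusted p = 0.00451, without overlap. Lamb2, a laminin chain, fell by 1.17 (adjusted p = 0.0207), Sparcl1 by 0.87 (adjusted p = 0.0326) and Sparc, a collagen-binding protein, by 0.97 (adjusted p = 0.0304). Calls of these 3 genes were lost in 5, 6 and 6 of 9 fits that left out 1 library (adjusted p up to 0.142), and without the 6 pericytes that carried fibroblast transcripts Sparc was at -0.44 (adjusted p = 0.228). After thinning Sparc and Sparcl1 had adjusted p of 0.0656 and 0.140, and with total-count scaling Sparcl1 had 0.0547. The chains of type IV collagen, Col4a1 and Col4a2, had differences of 0.54 log2 units (adjusted p = 0.156) and 0.38 log2 units (adjusted p = 0.307), and nidogen (Nid1) of 0.59 log2 units (adjusted p = 0.274). After thinning 5 genes of this list could be tested, 0 were called and the median was 0.39.

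In the list of fibroblast markers and fibrillar matrix, 1 of 25 tested genes rose (Timp1) and 4 fell (Gsn, Postn, Timp2, Timp3), with a median of -0.66. Over all genes tested 4.61% rose and 5.68% fell. With the pair as a block 2 genes of the list rose and 9 fell. Col1a1, the main chain of type I collagen, stood at 12248, 499, 8440.4, 165 and 2589.8 CPM in control libraries and 26948, 239, 1195, 178 and 291 CPM in expanded libraries. The 5 highest libraries were the 5 that held pericytes with at least 1% fibroblast transcripts. The difference was -3.43 ± 1.63 log2 units (SE), adjusted p = 0.252, and after thinning -3.38 (adjusted p = 0.0366). Immune cells held 1036 CPM of Col1a1 in controls and 53.6 CPM in expanded skin, and fibroblasts themselves 32580 and 8666 CPM. How much of the fibrillar collagen in pericytes came from free RNA or doublets was not tested. Postn, a matricellular protein, had a difference of -1.88 log2 units (adjusted p = 0.0458) and lost its call in 6 of 9 fits that left out 1 library (adjusted p up to 0.181) and with total-count scaling (adjusted p = 0.0757). Timp2, another metalloproteinase inhibitor, had -1.22 log2 units (adjusted p = 0.0283), lost its call in 6 of 9 such fits, and had an adjusted p of 0.0860 without the pericytes rich in fibroblast transcripts and of 0.178 after thinning. Gsn, the actin-severing gelsolin, fell by 1.58 (adjusted p = 0.00451) and was called in all 9 such fits, but not with all 10 libraries (-1.21, adjusted p = 0.0600). Timp3 stood at 9.95 and 5.69 CPM in immune cells and at 176 and 206 CPM in fibroblasts, far below its level in control pericytes.

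Immediate early genes, which dissociation of tissue also induces, had a median below that of all genes. Of 26 tested, 4 fell (Fosl2, Junb, Zfp36l1, Dusp1) and 1 rose (Ier3), with a median of -0.78; without the pericytes rich in fibroblast transcripts 11 fell and 1 rose. Differences of the 5 called genes were -1.18, -0.85, -0.98, -1.27 and 0.78 log2 units, and each call was lost in 2 to 7 of 9 fits that left out 1 library. The adjusted p was 0.0693 for Ier3 with the pair as a block, 0.0518 for Fosl2 with total-count scaling and 0.0886 for Dusp1 after thinning. Fos, a subunit of the AP-1 transcription factor, stood at 4732, 5229.7, 5639, 9271 and 6702 CPM in control libraries and 3212, 5522, 3020.0, 2227 and 4762 CPM in expanded libraries. The arms overlapped, with -0.81 ± 0.27 log2 units (SE) and adjusted p = 0.0669. Among glucocorticoid-responsive and metallothionein genes, 3 of 12 tested fell (Errfi1, Dusp1, Angptl4) and 0 rose, with a median of -0.89; Errfi1, an inhibitor of the EGF receptor, lost its call in 6 of 9 fits that left out 1 library and after thinning (adjusted p = 0.270). The metallothionein Mt1 had -1.87 log2 units (adjusted p = 0.0602), and -2.24 after thinning (adjusted p = 0.000550). None of the 5 tested cell cycle genes was called (median -0.66, 0 rose and 0 fell).

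**Figure D4:**
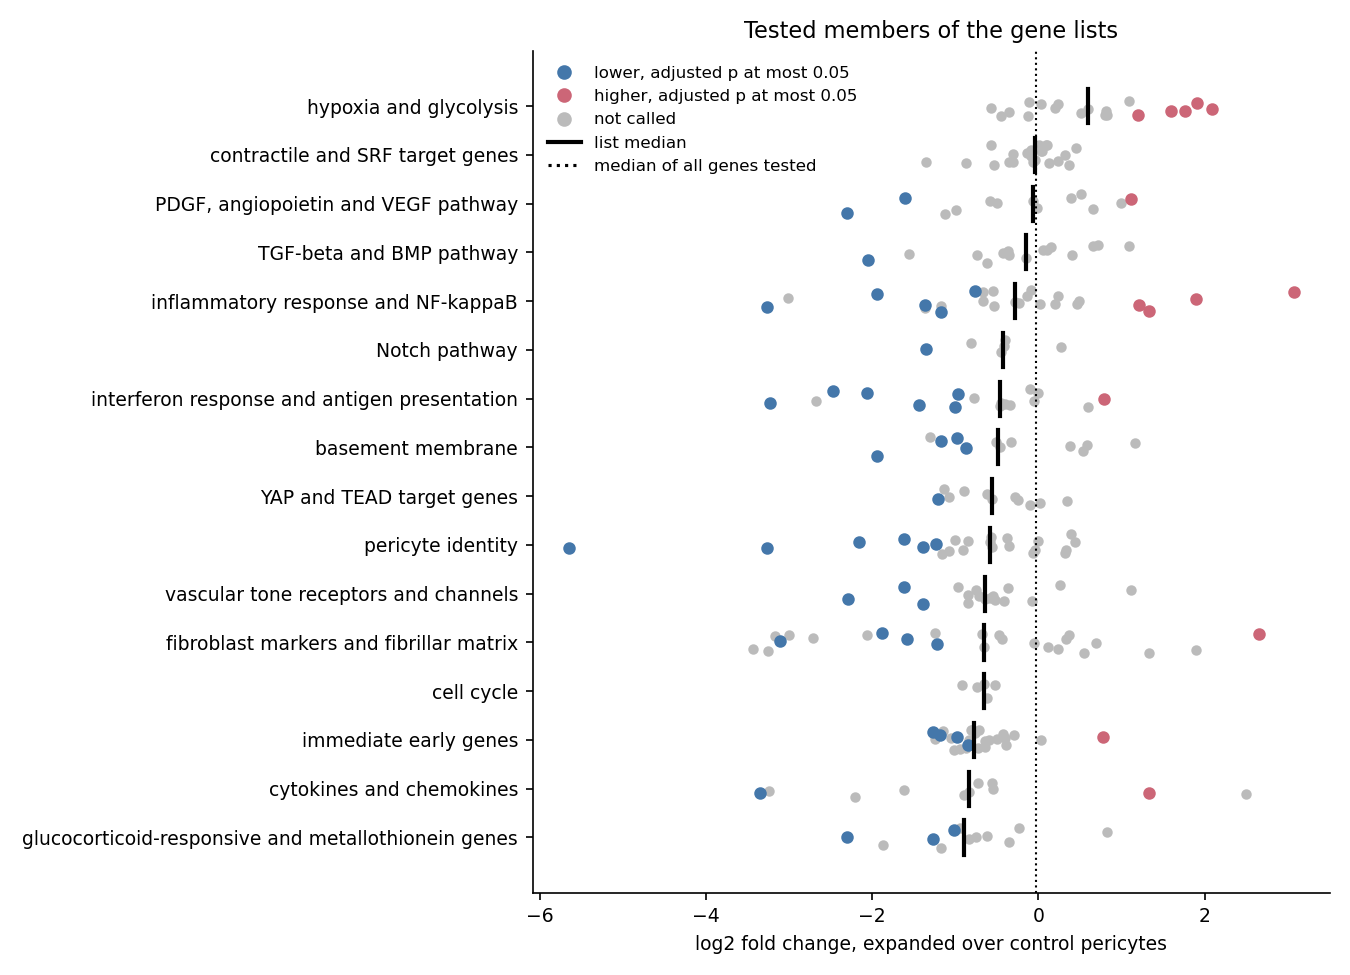
Log2 fold change, expanded over control, of each tested gene in 16 gene lists, with 1 point per gene, colours for genes that passed the test, a black bar at the list median and a dotted line at the median of all genes tested (-0.02). Hypoxia and glycolysis has a median of 0.60 with 5 genes higher, and the interferon list has 6 genes lower and 1 higher.

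Other genes among the 14 largest rises and the 14 largest falls had diverse roles. Rbm3, a cold-inducible RNA-binding protein, stood at 504, 305, 368, 165 and 427 CPM in control libraries and 1182, 1982, 1519, 1501 and 1384 CPM in expanded libraries. It rose by 2.11 ± 0.28 log2 units (SE), adjusted p = 0.000751, without overlap, and by 2.03 after thinning (adjusted p = 0.000905). Ssr4, a subunit of the translocon-associated complex, rose by 2.25 log2 units (adjusted p = 0.0014), and Emb, a chaperone of monocarboxylate transporters, by 2.19 log2 units (adjusted p = 0.00132). Ptp4a3, a phosphatase of endothelial and mural cells, rose by 1.82 log2 units (adjusted p = 0.00577), from 175 ± 116 CPM (SD, n = 5) to 653 ± 261 CPM (SD, n = 4). Rdh10, which makes retinal in retinoic acid synthesis, rose by 1.82 log2 units (adjusted p = 0.0283) with overlap of the arms, and Sdhc, a subunit of succinate dehydrogenase, by 1.83 log2 units (adjusted p = 0.0378). Rdh10 lost its call in 3 of 8 fits that left out 1 library (adjusted p up to 0.0945) and Sdhc in 7 of 9 (adjusted p up to 0.168), and the block adjusted p of Sdhc was 0.0658.

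Among the falls, Inpp4b, a phosphoinositide phosphatase, stood at 276, 159, 158, 353 and 187 CPM in control libraries and 73.0, 69.4, 11.8, 0 and 12.0 CPM in expanded libraries. It fell by 3.36 ± 0.57 (SE) on the log2 scale, adjusted p = 0.0036, without overlap. The fatty acid translocase Cd36 fell by 3.16 (adjusted p = 0.0066) and the cholesterol exporter Abca1 by 2.52 (adjusted p = 0.0136), although the arms of Cd36 overlapped through control day 2 round 1, at 17.5 CPM. Abca1 was called in 1 of the 4 leave-one-out fits that tested it (adjusted p up to 0.0539). Pgm2l1, an enzyme of sugar phosphate metabolism, fell by 2.56 (adjusted p = 0.0066), the kinase Prkx by 2.25 (adjusted p = 0.00535), and the GTPase-like genes F830016B08Rik and 9930111J21Rik2 by 3.50 (adjusted p = 0.0159, and 0.0515 without the expanded library of day 2 round 1) and 3.29 (adjusted p = 0.00261). Selenop, a secreted selenium carrier, and Rian, a noncoding RNA of an imprinted cluster, fell by 2.91 and 2.73 (adjusted p = 0.0014 and 0.0066). For Selenop the immune cells stood at 1244 and 290 CPM and for Rian the fibroblasts at 491 and 99.8 CPM, and both genes were high in the expanded library with 7 pericytes; with all 10 libraries they were at -1.26 (adjusted p = 0.433) and -1.32 (adjusted p = 0.454).

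Of the 14 rises and 14 falls, 4 and 3 could be tested after thinning, and all 7 were called. With at least 10 Rgs5 UMIs per pericyte, in 3 control and 4 expanded libraries, 14 of the rises and 9 of the falls could be tested. Their signs were kept, and 7 of the rises (Timp1, Sdc1, Slc2a1, Pkm, Serpina3n, Sdhc and Rdh10) and 4 of the falls (Inpp4b, Cd36, Selenop and Pgm2l1) were not called, with adjusted p from 0.0505 (Pkm) to 0.447 (Rdh10). Over all 250 calls, 35 of the 234 that could be tested were kept there. With all 10 libraries, Cxcl10, Selenop and Rian were not called. Of the rises 8, and of the falls 10, were called in every leave-one-out fit that tested them.

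Whether the effect of expansion differed between day 2 and day 1 was tested by an interaction term. Of 2431 genes 0 passed (0% called), and 186 had an unadjusted p under 0.05; after thinning 0 of 494 passed. Day 1 held 2 control libraries and 1 expanded library in this fit, and day 4 held 1 pair. For Timp3, the expanded libraries given above ran from 876 CPM on day 1 down to 63.8 CPM on day 4, and the day 2 effect minus the day 1 effect was -1.28 ± 0.61 (SE), adjusted p = 0.642 by edgeR's quasi-likelihood test.

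Smooth muscle cells, endothelial cells and fibroblasts of the same libraries, chosen by rules on their own markers, were compared with pericytes in the effect of expansion. In their own fits 8.22% of genes rose and 8.94% fell in smooth muscle cells, 6.28% and 7% in endothelial cells, 13.9% and 15.2% in fibroblasts, and 4.41% and 6.08% in immune cells, over 725, 2708, 11246 and 10987 cells. The test is the difference between the expansion effects of 2 classes in 1 fit with the library as a block. Against smooth muscle cells, 3 genes had a higher effect in pericytes (0.0643% of 4666 genes tested) and 9 a lower one (0.193%), and among the 2431 genes of the pericyte test, a set added after the data had been seen, the counts were the same (0.123% and 0.37%). Timp3 was among the latter, in the fit over 4666 genes, with a difference of -2.05 ± 0.29 (SE), adjusted p = 0.000260: it fell by 3.12 on the log2 scale in pericytes and by 1.02 in smooth muscle cells. Rgs16 (-1.88, adjusted p = 0.0144), Tinagl1 (-1.55, adjusted p = 0.0293) and Irf1 (-1.22, adjusted p = 0.0439) also had the lower effect in pericytes, as did Sept4, a septin (-1.86, adjusted p = 0.0250), and 9930111J21Rik2 (-3.25, adjusted p = 0.0144). After thinning Timp3 and Rgs16 still passed, while Tinagl1 (-1.79, adjusted p = 0.102) and Irf1 (-1.68, adjusted p = 0.0853) did not. Itga9 rose in smooth muscle cells too, by 1.78, and the difference from pericytes, 2.85 ± 0.85 (SE), did not pass (adjusted p = 0.195). Of the higher effects, Cd14 rose in pericytes from 84.8 ± 56.0 to 210.1 ± 52.3 CPM (SD, n = 5 and 4). In smooth muscle cells Cd14 went from 515 CPM (SD 391), uneven between control libraries, to 152 CPM (SD 85.6) in expanded ones. The difference between the effects was 2.97 ± 0.42 (SE), adjusted p = 0.000260 by edgeR's quasi-likelihood test. As given above, the call of Cd14 in pericytes was lost in most fits that left out 1 library. Sdc4, a syndecan of cell-matrix contacts, differed by 2.37 (adjusted p = 0.000260) and the early response gene Ier3 by 1.06 (adjusted p = 0.0183).

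Against endothelial cells, 54 of 6414 genes had a higher effect in pericytes (0.842%) and 39 a lower one (0.608%). Of the 5 largest differences each way, Cd248 and Dpt were among the genes of the pericyte test, and the other 8 were below its limit. Car4, Lrg1 and Ecscr had 0 UMIs in control pericytes and 131, 56 and 28 in expanded ones. Car4 stood at 149 ± 169 CPM (SD, n = 4) in expanded pericytes, uneven between libraries, against a mean of 74.7 CPM in expanded endothelial cells. Pdpn, Fbln5, Col15a1, Ldb2 and Lyve1 had 13, 15, 24, 11 and 5 UMIs in control pericytes and 0, 0, 1, 1 and 4 in expanded ones. Among the 2431 genes of the pericyte test 26 were higher (1.07%) and 17 lower (0.699%). Cd248, a sialomucin of mural and stromal cells known as endosialin, led them at 4.62 ± 0.66 (SE), adjusted p = 0.000584: pericytes went from 85.2 to 284 CPM, while endothelial cells held 5.74 and 0.539 CPM. Itga9 differed by 4.16 ± 0.72 (SE), adjusted p = 0.00302, with a log2 fold change of 0.08 in endothelial cells; over cells thinned to 2000 UMIs it was 3.98 (adjusted p = 0.131). Timp3 and the cholesterol exporter Abca1 had the lower effect in pericytes, with -2.84 ± 0.39 (SE), adjusted p = 0.00302, and -2.33 ± 0.48 (SE), adjusted p = 0.00896; after thinning Abca1 was at -1.14 (adjusted p = 0.793). For Dpt, Meg3 and Adamts2, which also stood among the higher effects, endothelial cells went from 18.4, 43.3 and 30.8 CPM in controls to 0.635, 0.567 and 2.997 CPM, and the levels of pericytes were 69.6 and 53.4, 929 and 274, and 185 and 230.4 CPM.

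Against fibroblasts, 92 of 10735 genes had a higher effect in pericytes (0.857%) and 150 a lower one (1.4%). Without the control library of day 4 the counts were 53 and 55, and without the expanded library of day 4 they were 80 and 57. Here Igfbp2, Pdpn, Dkk2, Grem1 and Fbln5 had 12 to 23 UMIs in control pericytes and 0 in expanded ones. Sfn, Col6a5, Ramp3 and F3, among the higher effects, were below the limit of the pericyte test, with 68, 55, 46 and 98 UMIs in all. Sfn, a keratinocyte marker, stood at 116 ± 221 CPM (SD, n = 4) in expanded pericytes and was uneven between libraries. Among the genes of the pericyte test 47 were higher (1.93%) and 103 lower (4.24%). Rgs16 went opposite ways, down in pericytes and up in fibroblasts from 4.56 to 29.0 CPM, with a difference of -4.50 ± 0.41 (SE), adjusted p = 4.66e-05. Steap4 did likewise, with 36.2 and 104 CPM in fibroblasts and a difference of -4.89 ± 0.68 (SE), adjusted p = 0.000755, and Cxcl10 differed by -4.02 ± 0.85 (SE), adjusted p = 0.0423. Cd248 (3.39 ± 0.34, SE) and Itga9 (4.38 ± 0.70, SE) again had the higher effect in pericytes, with adjusted p = 3.07e-06 and 0.000592. Irf1, which had a log2 fold change of 0.04 in fibroblasts, differed by -1.89 in the fit over 10735 genes (adjusted p = 1.34e-07). Timp1 rose in pericytes, fibroblasts (2.64), endothelial cells (1.87) and smooth muscle cells (1.62) alike, and its differences between pericytes and each class did not pass in the fits over 10735, 6414 and 4666 genes (adjusted p = 0.968, 0.797 and 0.417).

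**Figure D5:**
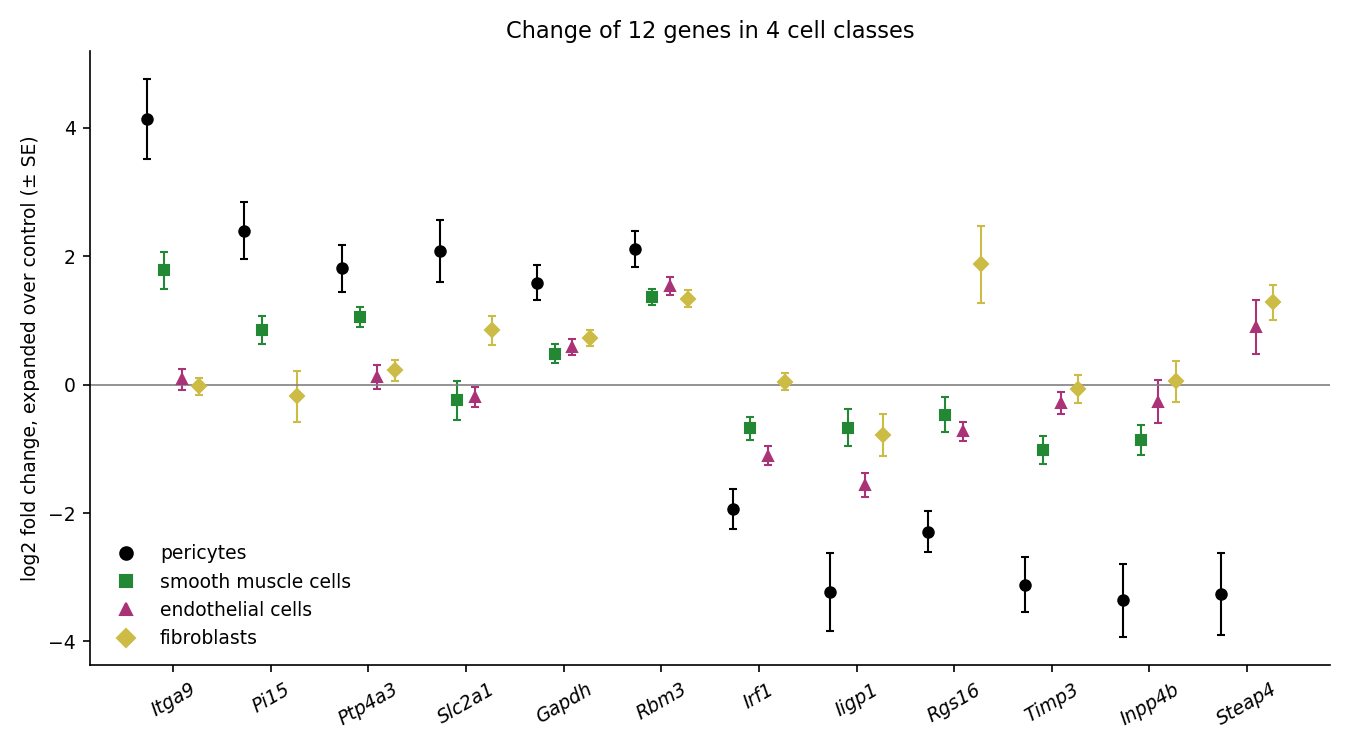
Log2 fold change, expanded over control, with ± 1 SE, of 12 genes in pericytes (black circles), smooth muscle cells (green squares), endothelial cells (purple triangles) and fibroblasts (yellow diamonds), each class tested in its own fit over the libraries; the genes were chosen after their values were seen, and a missing symbol is a gene not tested in that class. Itga9 and Pi15 stand highest in pericytes and next in smooth muscle cells, Rbm3 is above 0 in all 4 classes, and Steap4 is below 0 in pericytes and above 0 in fibroblasts.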

How the data were processed

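Single-cell mRNA libraries of sorted mouse skin cells (10 libraries, 5 per arm) were used. The 8 hashing lists hold no counts and were not used. Mice were told apart by hashtag counts in the matrices of the mRNA libraries, where a library was hashed. Counts of UMIs per gene and barcode, for 32285 genes, were deposited by the authors as filtered matrices made with Cell Ranger 6.1.2 on build mm10, per the submitters' processing notes. The labels name the hashing lists as HTO, and the counts of hashtag antibodies used here stood beside the genes in the mRNA matrices.

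Barcodes were filtered and pericytes chosen by the rule in the text, with Python 3.11.15 and scanpy 1.11.5. Pericytes and gene lists were chosen with earlier results of these data known. Of 22 lists, 18 had a gene that could be tested. Raw counts were summed per library (at least 10 pericytes) and fitted in R 4.3.3 with edgeR 4.0.16 (quasi-likelihood, TMM, filterByExpr, day and arm as terms); SE is the log2 fold change over the root of F. Fits of 2 classes had the library as a block. Single values were compared by two-sided exact permutation. Named genes were called, moved 1 way in all 4 complete pairs and averaged at least 50 CPM in the higher arm, with the 14 largest taken each way; for classes, the 5 largest each way with at least 50 CPM in either class. List members are named with them.

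Day and round come from the labels and pair the arms. Deviations from the arm means, on log2(CPM + 10), correlated at -0.04 to 0.10 within 4 pairs and at -0.12 to 0.14 across 16 other combinations.

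Scrublet, run per library, marked 809 kept cells (0.0584% to 2.97%). The scripts were tested on simulated counts with the means, library sizes and dispersions of the pericyte fit, over 2259 genes. Of genes changed by 1 log2 unit 31.5% were recovered, and of those changed by 2 log2 units 95.8%, with 8 false calls. A gene not called may therefore still have changed by 1 log2 unit. Alternatives were another scaling, no filter, the pair block, DESeq2 1.42.0, thinning, stricter membership and leaving out libraries.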

Additional observations from a re-analysis of the deposited data

Results flagged for a closer look

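Of 82 groups of libraries examined, 8 held a value far from the rest, where chance flags about 1 in 20 groups. In the expanded library of day 1 round 1, with 7 pericytes, fibroblast markers summed to 67004 CPM against 3061 CPM in the next library, and endothelial markers to 29.2 CPM against 7.71 CPM. Keratinocyte markers summed to 918 CPM in the expanded library of day 1 round 2, with 102 CPM in the next. Pi15 stood at 471 CPM in control day 2 round 2 (next 152 CPM), which was also the highest control for Rgs5, at 7883 CPM (next 5735 CPM). Control day 2 round 1 stood apart for Iigp1, at 2574 CPM (next 1021 CPM), for F830016B08Rik, at 490.3 CPM (next 100.1 CPM), and for Pgm2l1, at 210.1 CPM.

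Effects of expansion that differed between pericytes and another class, within the genes of the pericyte test, were as follows, as pericyte minus other on the log2 scale. Against endothelial cells the higher ones were Cd248 (4.62), Itga9 (4.16), Dpt (4.15), Meg3 (3.92) and Adamts2 (3.29), and the lower ones Steap4 (-4.20), Timp3 (-2.84), Abca1 (-2.33), Pcp4l1 (-1.87) and Frmd6 (-1.84). Against fibroblasts the higher ones were Itga9 (4.38), Cd248 (3.39), Ucp2 (2.88), Pcdh1 (2.65) and Abcc9 (2.56), and the lower ones Colec11 (-6.96), Steap4 (-4.89), Rgs16 (-4.50), Cxcl10 (-4.02) and Parm1 (-3.63). Colec11 stood below 1 CPM in fibroblasts of both arms, and its difference rests on 66 pericyte UMIs. Against smooth muscle cells the higher ones were Cd14 (2.98), Sdc4 (2.37) and Ier3 (1.04), and the lower ones 9930111J21Rik2 (-3.29), Timp3 (-2.07), Rgs16 (-1.90), Sept4 (-1.87) and Tinagl1 (-1.56). Each passed the interaction test at an adjusted p of 0.05 by edgeR's quasi-likelihood test.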

How the results depend on the processing

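Against 250 called genes, the pair as a replicate block gave 84 higher and 125 lower, with 185 of the 250 kept; it ended the calls of Sdhc and Iigp1 among the 14 named rises and 14 named falls, and of list genes as given above. Total-count scaling gave 292 calls, no filter 361, DESeq2 224, all 10 libraries 209, and leaving out doublets 321. There were 104 calls after thinning, over 494 genes, and 47 with at least 10 Rgs5 UMIs, over 2473 genes in 3 control and 4 expanded libraries. Leaving out 1 library gave 118 (without control day 2 round 1) to 236 calls; it was 138, 121, 135, 126 and 125 without control day 1 round 2, expanded day 2 round 1, expanded day 2 round 2, control day 4 and expanded day 4. The day interaction gave 15 calls with no filter and 0 to 10 without 1 library. Pericyte minus endothelial effects gave 44 calls after thinning, 43 over the genes of the pericyte test and 52 to 124 without 1 library; against fibroblasts these were 91, 150 and 108 to 242. Against smooth muscle cells there were 19 after thinning, 34 with no filter and 4 to 29 without 1 library. The cause of these shifts was not tested. The share of pericytes changed sign per 100 endothelial cells (-1.37) and ranged from -0.00825 to 0.109 percentage points without 1 library. The excess of 6148 UMIs per pericyte had p = 0.0625 by exact permutation within pairs, the smallest that pairing allows. A fit of libraries with at least 20 pericytes was not run, since it left no residual degrees of freedom. With 12 to 36 pericytes per fitted library, 2431 of 32285 genes had enough counts to be tested.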

Other observations

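Of 79 tested cytosolic ribosomal proteins, a family chosen after its values were seen, 28 rose and 0 fell in expanded pericytes. All 79 had a positive log2 fold change and the median was 0.65, against -0.02 over all genes tested. After thinning 77 could be tested, 29 rose and the median was 0.65. Their summed level was 124590, 109436, 91847, 88830 and 116376 CPM in control libraries and 121630, 170701, 198240, 176483 and 157226 CPM in expanded libraries. The expanded library of day 1 round 1, outside the fit, lay within the controls, and the other 4 expanded libraries lay above every control.

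Among 13 tested mitochondrial ribosomal proteins 5 rose, with a median of 1.01, and after thinning 0 could be tested. Among 32 proteasome subunits 5 rose (Psma7, Psmc2, Psmb3, Psma6 and Psmb5), with a median of 0.79, and after thinning 1 of 2 rose. Of 70 subunits of the respiratory chain and ATP synthase 7 rose, with a median of 0.53, and after thinning 0 of 16 were called. Of 39 translation factors 4 rose (Eif3i, Eif3c, Eif4ebp1 and Eif3l), with a median of 0.32, and after thinning 0 of 12 were called, with a median of 0.22. Of 13 genes of the signal sequence receptor and translocon 1 rose, with a median of 0.56, and after thinning 1 of 2 rose. These families were also chosen after their values were seen, and in each of the 5 no gene fell. Over all genes tested 4.61% rose and 5.68% fell. The families share the libraries and their depth, which was higher in expanded pericytes. Thinned values come from cells chosen at full depth, and the part of depth was not tested. The potassium channel gene Kcnj8 had at least 10 UMIs in 7 pericytes, of which 6 came from the expanded library of day 4 and 1 from that of day 2 round 2. Kcnj8 is a gene of the rule, the limit is on raw counts, and expanded pericytes were deeper, so this count carries no comparison of the arms. The labels tie the library to a pool of mice and not to 1 animal.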
